A study of Mus musculus with 14 samples.

Results

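Colitis-associated tumors (CAC tumors) of the mouse distal colon were compared with tumor-free distal colon epithelium (CAC controls), on 6 of the 14 arrays of the study. The members of the comparison are 4 CAC tumors and 2 CAC control pools, chosen by the group that the labels give them, and every probe set other than the array's own control sequences was used. All mice were male C57BL/6J. The tumors followed a dose of 10 mg/kg azoxymethane, a colon carcinogen, and 3 cycles of dextran sodium sulfate (DSS), a sulfated sugar polymer that damages the epithelium and leads to colitis. DSS was given at 2.5% in the drinking water for 7 days, and 14 days of plain water followed in each cycle. Each tumor array held tumor tissue of 1 mouse, while each control array held purified epithelium pooled from 5 mice, so the controls show no spread between single mice. The labels do not say whether the control mice had received azoxymethane or DSS. Tumors went through the same buffer incubation that was used to loosen the epithelium, but the labels describe no purification of epithelium from them, so they can hold connective tissue, vessel and immune cells. The other 8 arrays, from Apc Min/+ mice, which form intestinal tumors through a mutation of Apc and without colitis, entered the estimate of spread and the comparison of models at the end.

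The epithelium of the colon renews itself from stem cells at the base of the crypts, which divide under Wnt signals. Their daughters mature as they move up, into absorptive colonocytes, which take up salt, water and short-chain fatty acids and burn butyrate in their mitochondria, and into goblet cells, which secrete the mucus. Tumors of the azoxymethane and DSS model are known for activating mutations of beta-catenin, the protein through which Wnt signals reach the genome.

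Values are intensities as the authors normalised them, and in each sentence of values they run from tumor 1 to tumor 4 and then from control 1 to control 2. The 6 arrays had median intensities of 15 to 17, and 9342 to 9868 probe sets on each reached 32, the level from which a group is called bright here. A group mean of 10 or less is called near the floor, since few steps remain below it. A gene rose or fell where limma's adjusted p was under 0.05 and the change at least 2-fold. Changes are given as log2 of tumor over control ± standard error. That error uses a spread shared by all groups, control pools included, so it can understate the spread among single tumors. The third principal component of the 14 arrays, with 5.06% of the variance, placed tumor 1 at 65.8 and all other arrays between -21.7 and 10.7. Several results that rest on tumor 1 are therefore given with and without it. With 4 tumors and 2 pools, the number of arrays limits how precise a value can be.

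Of the 22626 probe sets 1943 (8.59%) rose and 1403 (6.2%) fell. At the level of genes, each read through its brightest probe set, 1267 of 13084 (9.68%) rose and 919 (7.02%) fell, and the counts were 1242 and 882 without tumor 1. The 5646 genes bright in both groups held 673 that rose (11.9%) and 603 that fell (10.7%), with a median change of 0.06 over all of these genes. A further 490 risers and 249 fallers were bright in 1 group only, and 104 and 67 were bright in neither. Changes of 16-fold or more were found in 127 risers and 70 fallers. The tumor values of 1246 risers and 915 fallers did not overlap the control values, where 6441 of all 13084 genes (49.2%) showed no overlap. Over genes bright in both groups the median standard error was 0.20, the median SD among tumors 0.24 and the median difference between the control pools 0.24. The median distance of a tumor from the mean of the other tumors was 0.26 for tumor 1 and 0.18 to 0.21 for tumors 2, 3 and 4.

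**Figure D1:**
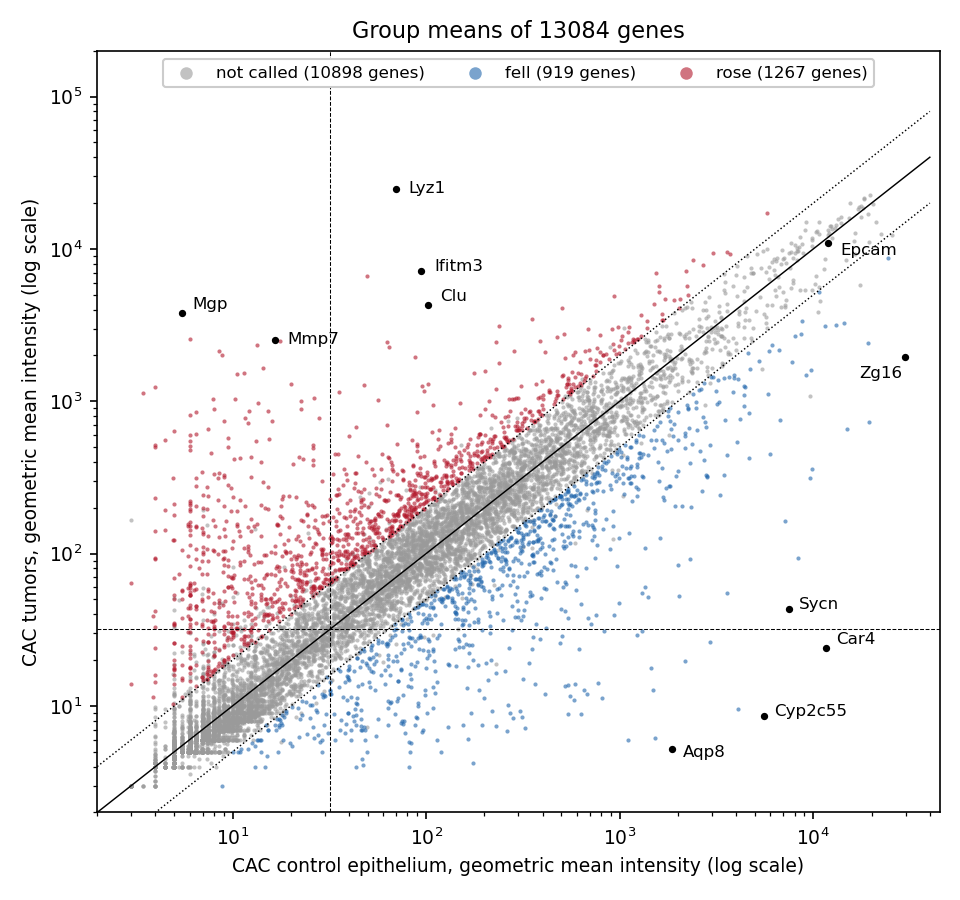
Geometric mean intensity of each of 13084 genes in the 2 CAC control pools (x axis) and the 4 CAC tumors (y axis), both on log scales, with genes that rose in red, genes that fell in blue and the others in grey. The solid line marks equal means, the dotted lines a 2-fold difference and the dashed lines an intensity of 32. A reader should see that Epcam lies near the line of equal means while Lyz1, Mgp and Mmp7 lie far above it and Cyp2c55, Aqp8 and Car4 far below.

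Tumor 1 carried keratins of stratified squamous epithelium, a tissue that lines skin and the anal canal and not the colon. Krt14, a keratin of its basal layer, read 1739 in tumor 1, 144, 120 and 114 in tumors 2 to 4, and 7 on both controls. It rose (5.11 ± 0.99, adjusted p 0.002), and it rose without tumor 1 as well (4.16, adjusted p 0.000176), but was not called in a fit of the 6 arrays alone (adjusted p 0.0516). The 3 Krt14 probe sets gave changes of 0.0 to 5.18. Krt5, its partner keratin, read 1866 in tumor 1, 8 in each of the other tumors and 10 and 9 in the controls, and Krt6b read 3048 in tumor 1 and 4 or 5 on the other arrays. The 15 squamous markers summed to 16248 in tumor 1, to 584 to 700 in the other tumors and to 253 to 279 in the controls. Trp63, the transcription factor that defines basal squamous cells, stayed near the floor in all 6 arrays, at 8 to 11. Among the 15 markers 2 rose and 0 fell, where 9.68% of all genes rose and 7.02% fell. The risers numbered 3 without tumor 1, 1 without control 1 and 1 without control 2. The part of these cells in any result was not tested.

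Both groups carried the labelled tissue's markers. All 20 genes of epithelial identity were bright in tumors and in controls. Epcam, the adhesion molecule found on all colon epithelial cells, read 9602, 12105, 10870 and 11503 in the tumors and 12291 and 11517 in the controls. The groups overlapped, and the change was -0.12 ± 0.09 (adjusted p 0.356). Cdh1, which encodes E-cadherin, read 1952, 1973, 1485 and 1640 against 2585 and 2081 (-0.41 ± 0.13, adjusted p 0.0269), a change below the 2-fold limit. The 20 markers summed to 73790 to 87022 in the tumors and 103644 to 107073 in the controls. Of these markers 2 rose, the tight junction gene Cldn4 and the apical membrane protein gene Prom1, and 2 fell, the brush border gene Vil1 and the tight junction gene Ocln. Over all genes 9.68% rose and 7.02% fell. Cldn4 read 1562, 2247, 2008 and 1464 against 355 and 160 (2.91 ± 0.41, adjusted p 0.000231), every tumor above both controls. Vil1 was just under 2-fold lower with quantile normalization, as Ocln was with an offset of 16 (-0.97). Both stayed just under 2-fold lower without tumor 1 (-0.97 each), and then 0 markers fell, while 1 fell without control 1. Prom1 did not pass without control 2 (adjusted p 0.097), which leaves 1 riser. Krt20, a keratin of mature surface cells, read 439, 2071, 2611 and 2981 against 6053 and 4875, lowest in tumor 1, without passing (-1.74 ± 0.74, adjusted p 0.0845). Without tumor 1 it did not pass either (-1.105, adjusted p 0.112).

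The transport genes of the colon surface fell as a group: 20 of 27 measured members fell and 1 rose, with a median change of -2.91, against a median of -0.03 over all genes. Slc26a3, the exchanger that absorbs chloride for bicarbonate, read 7, 7, 7 and 24 in the tumors and 4914 and 3378 in the controls. Tumor 4 was the highest of the tumors, and the gene fell (-8.74 ± 0.43, adjusted p 2.59e-08). Aqp8, a water channel of surface cells, read 5, 5, 5 and 6 against 2756 and 1259 (-8.48 ± 0.27, adjusted p 3.05e-10), with all tumors near the floor. Slc5a8, a sodium-coupled carrier of butyrate and lactate, read 8, 8, 9 and 11 against 624 and 635 (-6.14 ± 0.14, adjusted p 1.69e-11). Slc16a1, the proton-coupled carrier of the same acids, stayed bright in the tumors. It read 439, 533, 567 and 631 against 4279 and 3762 (-2.90 ± 0.20, adjusted p 6.71e-07), with little spread among the tumors. Atp12a, the proton-potassium pump of the colon, differed widely between tumors, at 11, 377, 204 and 861 against 7913 and 6416 (-5.44 ± 1.42, adjusted p 0.0101). Tumor 1 was lowest and tumor 4 highest; the change was -4.14 without tumor 1, -6.24 without tumor 4, and did not pass without control 1 (adjusted p 0.0615) or in a fit of the 6 arrays alone (adjusted p 0.111).

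The channel and pump genes did not all move together. Scnn1a, a subunit of the epithelial sodium channel, fell from 136 and 72 to 13, 13, 12 and 13 (-2.96 ± 0.21, adjusted p 8.44e-07), and the Scnn1b values of 25, 14, 16 and 13 against 21 and 23 did not pass (adjusted p 0.363). Atp1b3, a subunit of the sodium pump, rose from 313 and 331 to 1071, 662, 742 and 673 (1.26 ± 0.22, adjusted p 0.000919). Atp1b3 was the only riser of the list, and a further member joined it without tumor 3 or without tumor 4. Slc12a2, a chloride importer of crypt cells, read 4933, 2880, 1312 and 1457 against 760 and 1048 without passing (adjusted p 0.052). Guca2a, which encodes guanylin, a peptide that regulates salt and water secretion, fell from 6205 and 5727 to 393, 282, 344 and 1053 (-3.74 ± 0.60, adjusted p 0.000603). Its relative Guca2b read 93, 84, 109 and 91 against 62 and 66 (adjusted p 0.142).

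Enzymes of drug and steroid metabolism fell in 24 of 30 measured members and rose in 1, with a median change of -3.10. Cyp2c55, a cytochrome P450 of the colon, read 4, 4, 4 and 83 against 8674 and 3538 (-9.34 ± 1.06, adjusted p 5.08e-05). Tumor 4 stood above the other tumors, and the change was -10.44 without it, -8.70 without control 1 and -9.99 without control 2. Ces2a, a carboxylesterase, read 6, 6, 5 and 8 against 1583 and 1454 (-7.94 ± 0.70, adjusted p 6.63e-06). Sult1a1, a sulfotransferase for phenols, read 23, 20, 24 and 42 against 2521 and 3381 (-6.81 ± 0.35, adjusted p 4.07e-08), and Cyp3a13 read 12, 10, 8 and 15 against 770 and 442 (-5.74 ± 0.34, adjusted p 1.51e-07). Cyp2c55 and Ces2a had tumor means near the floor, and every tumor lay below both controls in all 4 genes. Adh1, an alcohol dehydrogenase, remained bright, with 252, 282, 286 and 802 against 9880 and 9734 (-4.78 ± 0.67, adjusted p 0.000231), highest in tumor 4. Nr1i2, the nuclear receptor PXR that switches on several such enzymes, read 13, 13, 20 and 13 against 89 and 58 (-2.31 ± 0.24, adjusted p 2.69e-05). The riser was Ephx1, the microsomal epoxide hydrolase, with 127, 93, 103 and 209 against 32 on both controls (1.98 ± 0.34, adjusted p 0.000934), the highest value in tumor 4.

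A promoter from this group is shown as a chosen example of a match to an HNF4 motif in a gene that fell. HNF4 proteins, whose gene Hnf4a also fell, are known activators of colon enzymes, and their part here was not tested. The letters CAAAGTCCA, searched on both strands in the 250 bases before each start site, were found in 126 of 32851 promoters of the genome (0.384%). A window was given for 22 of the 24 fallen enzyme genes and 12 of the 20 fallen transport genes, and the letters were found in 1 of the 22 (4.55%) and 0 of the 12. Each listed gene was read through 1 window, while the 32851 can hold several windows of a gene, so the shares are not counted alike. The match lies 116 bases before the start site of Cyp2c65, which read 7, 7, 7 and 10 against 338 and 17 (-3.31 ± 0.89, adjusted p 0.0122), with most of the control signal in control 1. The RefSeq sequence (GRCm38.p6, chr19:39060756-39061005, plus strand) has the match in capitals.
Cyp2c65: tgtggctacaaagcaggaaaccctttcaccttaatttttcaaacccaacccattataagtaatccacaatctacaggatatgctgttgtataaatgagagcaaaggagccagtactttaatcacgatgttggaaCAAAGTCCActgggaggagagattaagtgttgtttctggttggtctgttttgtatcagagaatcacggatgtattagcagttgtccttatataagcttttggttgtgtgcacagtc

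Among 24 transcription factors of colon differentiation 11 fell and 2 rose. Vdr, the vitamin D receptor, read 24, 31, 14 and 30 against 734 and 513 (-4.70 ± 0.44, adjusted p 1.07e-05). Klf4, a factor of surface and goblet cells, read 433, 452, 337 and 607 against 4374 and 2937 (-3.002 ± 0.33, adjusted p 4.28e-05). Hnf4a read 726, 650, 717 and 1139 against 2954 and 2441 (-1.77 ± 0.32, adjusted p 0.00123), so it remained bright in every tumor. Cdx1, an intestinal homeobox factor, fell from 603 and 772 to 279, 107, 112 and 170 (-2.14 ± 0.46, adjusted p 0.00375). Atoh1, required for secretory cells, fell from 405 and 295 to 56, 35, 33 and 119 (-2.71 ± 0.80, adjusted p 0.0197), but did not pass without control 1 (adjusted p 0.113) or without control 2 (adjusted p 0.0657). In each of these genes the tumor values lay below both controls. The risers were Foxa3, a forkhead factor, with 299, 381, 213 and 228 against 92 and 105 (1.47 ± 0.42, adjusted p 0.0158), and Prdm1, a repressor of the immature intestine, with 26, 27, 47 and 31 against 11 and 10 (1.60 ± 0.34, adjusted p 0.00328). Only 1 of them rose without control 1, and likewise without control 2. Foxa1 read 1544, 1385, 1245 and 1316 against 896 and 809, a change below 2-fold (0.68 ± 0.22, adjusted p 0.0257).

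The 15 goblet cell genes held 8 that fell and 0 that rose by limma, and 0 were higher at an unadjusted p under 0.05. At an adjusted p under 0.05 and any size 10 were lower, where 25.6% of all probe sets were. Zg16, a lectin-like mucus protein and the brightest gene of the control epithelium, read 164, 3323, 1938 and 13687 against 28259 and 31599. Tumor 1 was lowest and tumor 4 came closest to the controls, and the change of -3.94 ± 1.43 passed narrowly (adjusted p 0.0492). It did not pass without tumor 1 (-2.75, adjusted p 0.0573), tumor 2 (adjusted p 0.0618), tumor 3 (adjusted p 0.0799), control 1 (adjusted p 0.152) or control 2 (adjusted p 0.174), nor in a fit of the 6 arrays alone (adjusted p 0.207), with quantile normalization (adjusted p 0.0633) or with limma's trend and robust options (adjusted p 0.0512). Fcgbp, a mucus protein that binds the IgG tail, read 77, 553, 251 and 1102 against 2641 and 4554 (-3.40 ± 0.83, adjusted p 0.00689), and did not pass without control 2 (adjusted p 0.0652) or in a fit of the 6 arrays alone (adjusted p 0.106). The Fcgbp change was -2.70 without tumor 1 (adjusted p 0.00461). Creb3l1, a membrane-bound transcription factor of goblet cells, read 64, 69, 69 and 124 against 344 and 601 (-2.54 ± 0.29, adjusted p 5.23e-05). The count of fallers was 5 without tumor 3, 5 without control 1 and 2 without control 2. Tff3, the trefoil peptide of goblet cells, read 4232, 5415, 4522 and 10904 against 17554 and 17343 (adjusted p 0.0533), and Spink4 read 12009, 8682, 5764 and 12385 against 4419 and 5880 (adjusted p 0.222). The summed signal of the list was 20190 to 49502 in the tumors, highest in tumor 4, and 73120 to 85114 in the controls. Whether fewer cells of a type or less RNA per cell lies behind such a fall cannot be told apart in bulk samples, here and in the results that follow.

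Genes that burn fatty acids in the mitochondrion fell together. Fatty acid oxidation and ketone body synthesis had 16 fallers and 0 risers among 26 members, with a median change of -1.26, and 15 to 17 fell with 1 array left out. Cpt1a, which admits long-chain fatty acids to the mitochondrion, read 147, 169, 157 and 198 against 743 and 746 (-2.16 ± 0.19, adjusted p 6.97e-06). Hadha, a subunit of the trifunctional protein of fatty acid oxidation, read 385, 359, 361 and 331 against 763 and 866 (-1.18 ± 0.08, adjusted p 8.44e-07). Values of both genes were tight within each group and did not overlap. Slc25a20, the carnitine carrier, fell from 1960 and 1286 to 168, 287, 382 and 432 (-2.41 ± 0.31, adjusted p 0.000134), and Acads, which oxidises butyrate, fell from 532 and 459 to 110, 155, 158 and 199 (-1.70 ± 0.21, adjusted p 9.88e-05). Acadl read 1788, 1580, 1206 and 1196 against 1492 and 1525 (-0.09 ± 0.17, adjusted p 0.794).

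In the citric acid cycle and the respiratory chain most differences stayed under 2-fold. Of 20 citric acid cycle genes 5 fell and 0 rose, with a median change of -0.75, and 7 fell without tumor 1. Cs, citrate synthase, the entry enzyme of the cycle, read 1636, 1587, 1602 and 1660 against 4635 and 4819 (-1.54 ± 0.06, adjusted p 2.61e-09). The 4 tumors lay within a few percent of each other, and the controls did too. Pcx, pyruvate carboxylase, fell furthest, from 331 and 323 to 33, 48, 62 and 56 (-2.76 ± 0.27, adjusted p 1.4e-05). Among 54 subunits of oxidative phosphorylation 4 fell by 2-fold or more and 1 rose, and 40 were lower at an adjusted p under 0.05 whatever the size, where 5794 of 22626 probe sets (25.6%) were lower by that rule. The median over the 54 subunits was -0.60. Uqcrh, a subunit of complex III, read 2408, 2879, 2607 and 2477 against 3878 and 3857 (-0.58 ± 0.07, adjusted p 4.55e-05). Ndufa1 of complex I fell from 4368 and 4887 to 1817, 2049, 1893 and 2608 (-1.16 ± 0.14, adjusted p 9.64e-05). Ndufa4 went the other way, with 2752, 2112, 1833 and 1612 against 950 and 967 (1.09 ± 0.17, adjusted p 0.000465), highest in tumor 1. Without tumor 1 it stayed higher at 0.94 (adjusted p 0.000144), below 2-fold, which leaves 0 risers in the list.

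**Figure D2:**
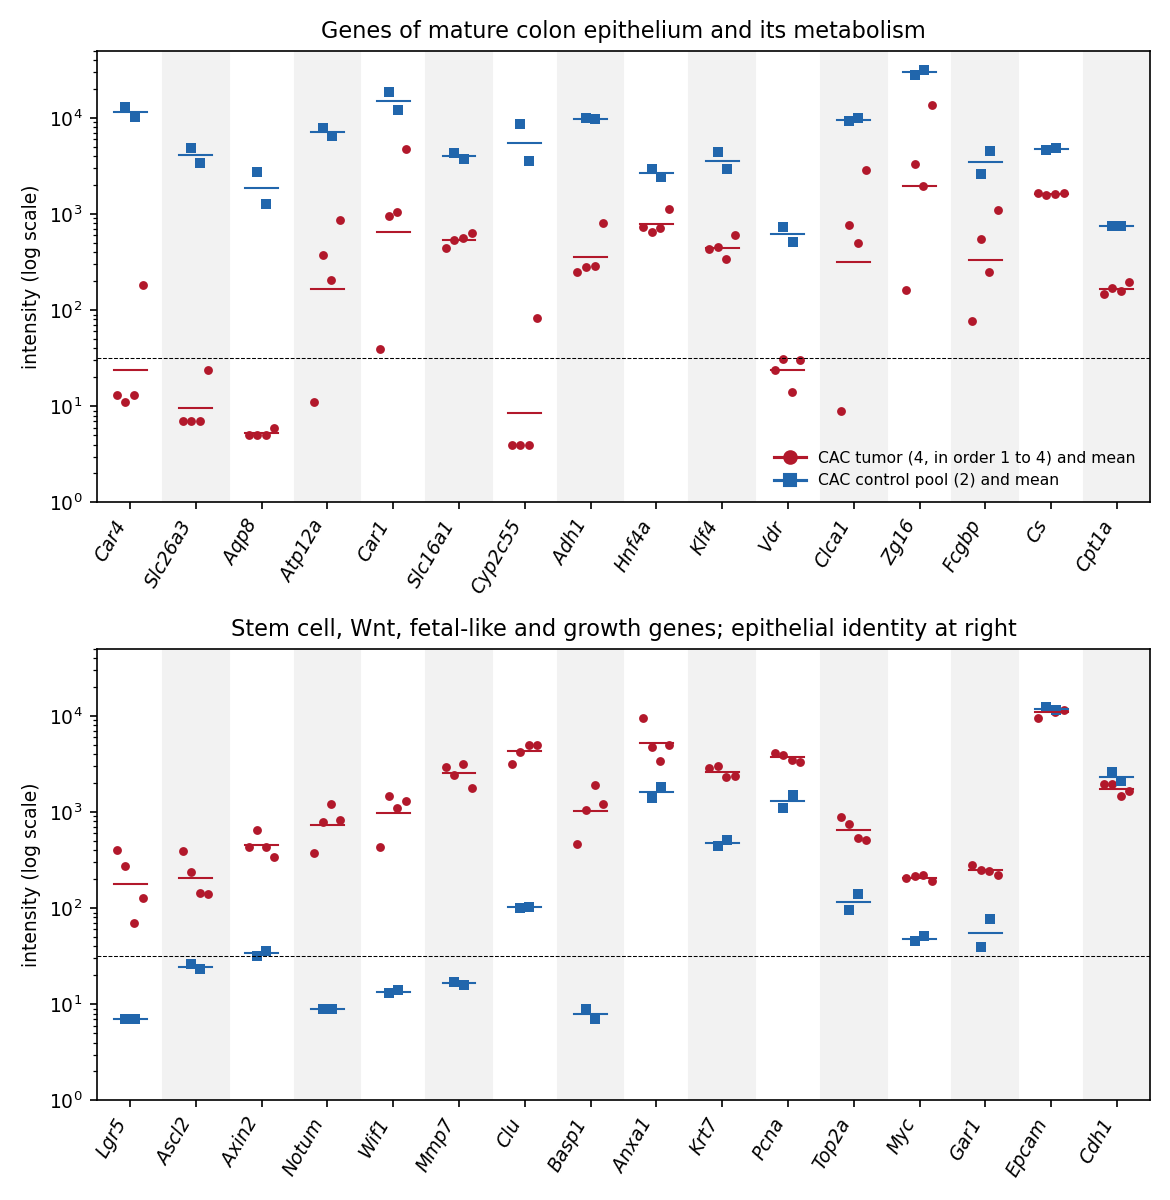
Intensity (log scale) of 32 genes on each of the 6 CAC arrays, with tumors 1 to 4 as red circles from left to right, the 2 control pools as blue squares, the geometric mean of each group as a line, and a dashed line at 32. The upper panel shows genes of mature epithelium and fuel metabolism, among them Slc26a3 with tumors at 7 to 24 and controls at 3378 and 4914; the lower panel shows stem cell, fetal-like and growth genes, with the overlapping values of Epcam and Cdh1 at the right.

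Stem cell and Wnt feedback genes rose in 20 of 27 measured members and fell in 0, with a median change of 2.88, and 17 to 20 rose with 1 array left out. These genes are direct targets that mark active Wnt signaling, inhibitors that Wnt induces against itself, or markers of crypt base stem cells. Axin2, the classical feedback target, read 433, 653, 429 and 342 against 32 and 36 (3.73 ± 0.32, adjusted p 4.83e-06). Notum, an enzyme that inactivates Wnt proteins, read 377, 783, 1209 and 827 against 9 on both controls (6.36 ± 0.41, adjusted p 4.3e-07). Wif1, a secreted Wnt binder, read 437, 1461, 1101 and 1303 against 13 and 14 (6.18 ± 0.42, adjusted p 6.43e-07). Tumor 1 was the lowest tumor for Notum and Wif1. Lgr5, the stem cell receptor for R-spondins, was highest in tumor 1, with 404, 274, 70 and 127 against 7 on both controls (4.66 ± 0.87, adjusted p 0.00162). Ascl2, a transcription factor of the same cells, read 392, 235, 143 and 141 against 26 and 23 (3.09 ± 0.54, adjusted p 0.00103), also highest in tumor 1. Every tumor exceeded both controls for each of these genes.

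The receptors and effectors were less uniform. Rnf43, a ubiquitin ligase that removes Wnt receptors, read 255, 313, 198 and 211 against 19 and 20 (3.62 ± 0.31, adjusted p 4.56e-06), and Ccnd1, cyclin D1, read 433, 498, 510 and 676 against 51 and 98 (2.89 ± 0.28, adjusted p 1.69e-05). Cd44, an adhesion receptor of crypt cells and of many stromal cells, read 509, 525, 325 and 497 against 10 and 6 (5.88 ± 0.27, adjusted p 1.43e-08). Sox9, a crypt transcription factor, rose from 173 and 219 to 341, 409, 415 and 560, by little more than 2-fold (1.12 ± 0.40, adjusted p 0.0469). Ephb2 and Ephb3, receptors that place cells along the crypt, read 92, 86, 60 and 64 against 45 and 62 (adjusted p 0.117) and 129, 140, 133 and 99 against 44 and 95 (adjusted p 0.0535). Lrig1, a stem cell gene that restrains growth factor receptors, read 275, 134, 68 and 77 against 143 and 158 (adjusted p 0.824), with tumor 1 above and tumors 2, 3 and 4 below both controls. Lef1 and Sox4 were near the floor in both groups.

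Promoters of 2 of the risers are shown as chosen examples of a match to a searched motif in a gene bright in all tumors. The TCF/LEF letters ATCAAAG, through which beta-catenin's partners bind DNA, were searched on both strands in the 250 bases before the start site. Of the 20 risers 13 had a window in the promoter table and the others were not searched. Here too each riser was read through 1 window, while the count over all promoters can hold several windows of a gene. The letters were found in 1 of the 13 windows (7.69%) and in 1053 of 32851 promoters (3.21%). The AP-1 letters TGAGTCA were found in 2 of the 13 windows (15.4%) and in 1466 of all promoters (4.46%). The 2 windows were those of Mmp7 and of Prom1, which is not shown. Sp5, a transcription factor that Wnt induces, read 67, 191, 285 and 142 against 7 and 5 (4.67 ± 0.60, adjusted p 0.000123), and its TCF/LEF match, on the minus strand, starts 104 bases before the start site. Mmp7, a protease of epithelial tumor cells, read 2966, 2455, 3162 and 1776 against 17 and 16 (7.26 ± 0.29, adjusted p 3.37e-09), and its AP-1 match starts 63 bases before the start site. Matches are in capitals in the RefSeq sequences of GRCm38.p6, Sp5 at chr2:70474673-70474922 and Mmp7 at chr9:7691840-7692089, both on the plus strand.
Sp5: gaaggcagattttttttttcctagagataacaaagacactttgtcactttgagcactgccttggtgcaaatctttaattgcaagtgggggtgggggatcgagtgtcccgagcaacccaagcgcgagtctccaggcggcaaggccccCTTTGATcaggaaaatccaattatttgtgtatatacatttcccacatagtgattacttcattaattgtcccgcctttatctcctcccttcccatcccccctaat
Mmp7: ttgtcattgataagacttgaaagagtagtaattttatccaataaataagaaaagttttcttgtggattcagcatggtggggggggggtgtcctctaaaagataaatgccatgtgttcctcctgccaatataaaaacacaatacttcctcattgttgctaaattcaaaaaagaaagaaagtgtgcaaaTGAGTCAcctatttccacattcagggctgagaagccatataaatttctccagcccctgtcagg

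Genes known from the fetal and the regenerating gut epithelium rose in 17 of 26 members and fell in 0, with a median change of 2.16. Clu, clusterin, which marks revival stem cells after injury, read 3184, 4257, 5022 and 4929 against 100 and 104 (5.39 ± 0.46, adjusted p 5.26e-06), and its 4 probe sets gave changes of 5.39 to 6.22. Basp1, a membrane-bound signaling protein, read 469, 1057, 1917 and 1218 against 9 and 7 (7.03 ± 0.52, adjusted p 1.42e-06). No tumor overlapped a control in either gene. Krt7, a keratin of simple duct epithelium, read 2870, 2992, 2330 and 2388 against 439 and 512 (2.47 ± 0.15, adjusted p 1.97e-07), and Anxa1, an annexin raised in wound repair, read 9479, 4695, 3371 and 4946 against 1409 and 1810 (1.71 ± 0.31, adjusted p 0.00146), highest in tumor 1. Ly6a, known as Sca-1, rose from 2027 and 2056 to 3700, 5627, 5303 and 4406 (1.20 ± 0.34, adjusted p 0.0155). Sprr1a read 1740, 104, 101 and 413 against 84 and 40 (adjusted p 0.0789), high in tumor 1, where squamous keratins were also high. Without tumor 1 its change was 1.49 (adjusted p 0.0923). S100a6 was bright everywhere, with 13254, 14748, 12750 and 16299 against 13453 and 11374 (0.20 ± 0.13, adjusted p 0.268). Several members, among them Ccn2 and Lgals1, are also made by fibroblasts, whose markers are given further on, and their part in the count was not tested.

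Genes of cell division rose, with DNA replication genes up in 17 of 31 members and mitosis genes in 17 of 23, with medians of 1.36 and 1.58 and with 0 fallers in either list. Pcna, the sliding clamp of DNA polymerase, read 4145, 3963, 3500 and 3299 against 1100 and 1507 (1.53 ± 0.20, adjusted p 0.000159). Mcm4, a subunit of the replicative helicase, read 321, 272, 233 and 250 against 32 and 72 (2.48 ± 0.39, adjusted p 0.000514), and Rrm2, which makes deoxynucleotides, read 404, 429, 257 and 295 against 25 and 74 (2.98 ± 0.46, adjusted p 0.000452). The controls differed by more than the tumors in Mcm4 and Rrm2, and all tumors lay above both. Among the mitosis genes Top2a, topoisomerase II, read 879, 747, 539 and 508 against 96 and 140 (2.49 ± 0.38, adjusted p 0.000404), but its other probe set gave -0.11. Plk1, a mitotic kinase, read 185, 224, 170 and 162 against 32 and 39 (2.38 ± 0.28, adjusted p 6.77e-05). Mad2l1, of the spindle checkpoint, read 513, 537, 499 and 478 against 152 and 91 (2.11 ± 0.19, adjusted p 9.15e-06). Aurkb, whose kinase closes mitosis, read 91, 88, 47 and 37 against 28 and 23 without passing (adjusted p 0.0606). With 1 array left out 12 to 19 replication genes and 14 to 18 mitosis genes rose.

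Ribosome assembly genes rose in 20 of 27 members, and no member fell. Myc, the transcription factor that drives them, read 205, 218, 220 and 190 against 45 and 51 (2.12 ± 0.18, adjusted p 4.63e-06). Gar1 and Nhp2, parts of the particle that modifies ribosomal RNA, read 281, 248, 246 and 219 against 39 and 78 (2.17 ± 0.26, adjusted p 7.82e-05) and 860, 863, 879 and 960 against 168 and 240 (2.15 ± 0.27, adjusted p 9.45e-05). All 3 genes were nearly level among tumors. Rrs1, needed for the large subunit, read 389, 356, 469 and 314 against 74 and 100 (2.14 ± 0.20, adjusted p 9.64e-06). The ribosomal proteins themselves did not reach 2-fold in either direction: of 37 measured 0 rose and 0 fell by limma, with a median change of 0.23. At an unadjusted p under 0.05 and any size 17 were higher and 2 lower. At an adjusted p under 0.05 and any size 15 were higher and 2 lower, where 14.2% and 25.6% of all probe sets were. Rpl19 showed a small and tight difference, at 11219, 10421, 10965 and 10507 against 8784 and 8612 (0.31 ± 0.04, adjusted p 0.00026), and 14 to 20 of the assembly genes rose with 1 array left out.

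Building blocks followed a split pattern. In nucleotide and one-carbon synthesis 7 of 17 members rose and 0 fell. Ctps, CTP synthase, read 248, 219, 196 and 158 against 26 and 27 (2.93 ± 0.21, adjusted p 9.25e-07), and Shmt2, the mitochondrial serine enzyme of one-carbon supply, read 212, 162, 166 and 162 against 27 and 40 (2.41 ± 0.29, adjusted p 7.75e-05). The 4 Shmt2 probe sets gave changes of -0.33 to 2.41, and their mean was under 2-fold (0.87, adjusted p 0.0025). Shmt1, its cytosolic counterpart, read 228, 93, 156 and 102 against 97 and 155 (adjusted p 0.857). In amino acid transport 6 of 18 members rose and 4 fell, and 3 rose without control 1. Slc38a2, a glutamine and alanine importer, rose from 422 and 383 to 1151, 972, 1372 and 969 (1.46 ± 0.17, adjusted p 6.25e-05), and Slc38a1 rose from 32 and 39 to 126, 154, 117 and 102 (1.80 ± 0.22, adjusted p 8.5e-05). Slc6a14, a broad amino acid importer of the colon surface, fell from 2450 and 2149 to 56, 53, 141 and 173 (-4.64 ± 0.73, adjusted p 0.000517), and the glutamate carrier Slc1a1 fell from 62 and 95 to 8 on each tumor (-3.26 ± 0.19, adjusted p 1.12e-07).

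In glycolysis, cholesterol synthesis and the hypoxia genes most members were not called. Over all genes 9.68% rose and 7.02% fell. The glycolysis fallers lay above that share by few genes, and 2 of them remained without tumor 1. Among 17 glycolysis genes 3 fell and 1 rose, with a median of -0.25. Hk1, a hexokinase, fell from 524 and 474 to 144, 181, 135 and 157 (-1.70 ± 0.18, adjusted p 3.69e-05). Ldha, lactate dehydrogenase A, read 3707, 4139, 4923 and 4468 against 6100 and 5457 (-0.43 ± 0.20, adjusted p 0.107). Slc2a1, the glucose carrier Glut1, fell from 3455 and 1996 to 835, 1374, 1476 and 1260 (-1.12 ± 0.28, adjusted p 0.00867), but not past 2-fold without tumor 1 (-0.94) and not past the test in a fit of the 6 arrays alone (adjusted p 0.0786) or without control 1 (adjusted p 0.127), where 1 faller remained. The riser Pfkfb3 did not pass without tumor 2, tumor 3, control 1 or control 2 (adjusted p 0.0522 to 0.114), nor in a fit of the 6 arrays alone (adjusted p 0.143), as the mean of its probe sets (adjusted p 0.163), with an offset of 16 (adjusted p 0.0631) or with the replicate block (adjusted p 0.0577). Of 19 angiogenic and hypoxia genes 2 rose and 0 fell, and 1 rose without control 1 and 1 fell without tumor 3. Ddit4, an inhibitor of mTOR induced by stress, rose from 299 and 216 to 619, 1017, 739 and 830 (1.63 ± 0.35, adjusted p 0.00354), while Vegfa, the endothelial growth factor, read 47, 39, 52 and 48 against 81 and 76 (-0.76 ± 0.20, adjusted p 0.0092), lower by less than 2-fold. Of 23 cholesterol synthesis genes 1 rose and 2 fell. The risers numbered 0 without tumor 3, tumor 4 or control 1 and 2 without control 2.

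Most genes of protein folding stress and of oxidant defense were not called, where 9.68% of all genes rose and 7.02% fell. Hspa5, the chaperone BiP, read 3612, 4951, 5099 and 6597 against 2019 and 2542 (1.13 ± 0.25, adjusted p 0.0044), 1 of 2 risers among 23 unfolded protein response genes. It fell short of 2-fold without tumor 4 (0.99) and without control 1 (0.96, adjusted p 0.0519), and 1 member rose without either array. Without tumor 4, 1 member fell. Among 28 oxidant and antioxidant enzymes 4 rose and 2 fell. Gpx2, the glutathione peroxidase of gut epithelium, read 8059, 9152, 8744 and 8154 against 1952 and 2953 (1.83 ± 0.31, adjusted p 0.000947), and Gpx3, its secreted relative, read 326, 195, 196 and 211 against 10 and 7 (4.76 ± 0.35, adjusted p 1.29e-06). Prdx6, a peroxiredoxin, read 1014, 1976, 3445 and 4927 against 19897 and 18411 (-2.99 ± 0.51, adjusted p 0.000898), lowest in tumor 1 and highest in tumor 4. Nos2, the inducible nitric oxide synthase, read 4 on all 6 arrays.

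**Figure D3:**
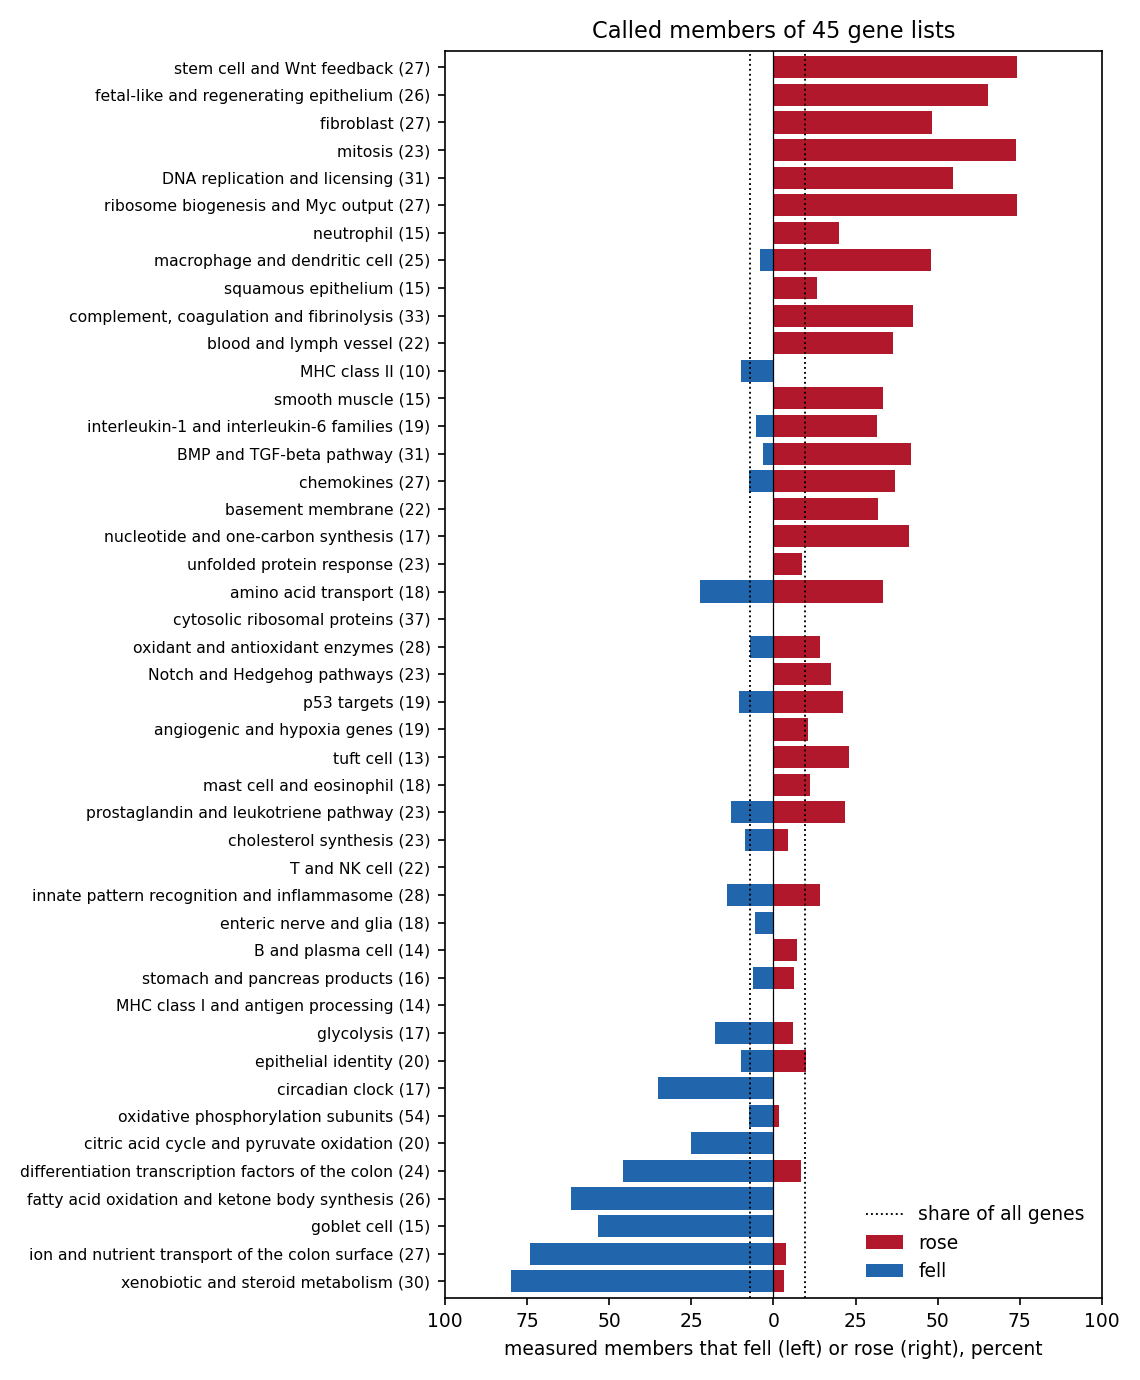
Share of the measured members of each of 45 gene lists that rose (red, to the right) or fell (blue, to the left), in percent, with the number of measured members in brackets and lists ordered from the highest median change at the top to the lowest at the bottom. The dotted lines mark the share of all 13084 genes that rose (9.68%) and fell (7.02%). The stem cell and Wnt list leads at the top, and xenobiotic metabolism stands last.

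Inflammatory mediators of a few kinds were far higher in the tumors. Of 27 chemokines 10 rose and 2 fell, and 7 to 9 rose with 1 array left out. Cxcl5 and Cxcl2, which attract neutrophils through the receptor Cxcr2, read 587, 498, 1356 and 254 against 14 and 17 (5.19 ± 0.69, adjusted p 0.000166) and 483, 244, 290 and 60 against 5 on both controls (5.41 ± 0.86, adjusted p 0.000557). Tumor 4 was the lowest tumor for both, and Cxcl2 changed by 6.02 without it. Cxcl10, Ccl3, Ccl4 and Ccl5, which bring in T cells and monocytes, gave no call; Cxcl10 read 20, 36, 23 and 23 against 23 on both controls (adjusted p 0.761). Ccl28, an epithelial chemokine for antibody-secreting cells, fell from 178 and 94 to 6, 6, 7 and 11 (-4.16 ± 0.29, adjusted p 7.42e-07).

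In the interleukin-1 and interleukin-6 families 6 of 19 genes rose and 1 fell. Il1b read 343, 754, 531 and 189 against 15 and 13 (4.85 ± 0.62, adjusted p 0.000118). Il6st, the receptor subunit gp130 that interleukin-6, interleukin-11 and oncostatin M share, read 257, 240, 206 and 211 against 32 on both controls (2.83 ± 0.26, adjusted p 9.27e-06), with tumors nearly level. The 3 probe sets of this receptor gave changes of 0.82 to 2.83. Socs3, the feedback inhibitor that this receptor induces, read 1350, 935, 2056 and 737 against 136 and 70 (3.59 ± 0.49, adjusted p 0.000196). Of the cytokines, Il6 read 69 in tumor 1 and 5 on every other array, and Il11 read 74, 36, 22 and 30 against 7 on both controls (adjusted p 0.122). Il18, which healthy epithelium stores, fell from 2401 and 2155 to 466, 696, 711 and 865 (-1.77 ± 0.22, adjusted p 0.000103).

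Among the sensors of microbes 4 genes fell and 4 rose, where 7.02% of all genes fell and 9.68% rose. Nlrp6, an epithelial inflammasome sensor, read 35, 22, 22 and 19 against 425 and 292 (-3.89 ± 0.49, adjusted p 0.000112), and Pycard, the inflammasome adaptor, read 1146, 851, 708 and 1208 against 2961 and 3409 (-1.73 ± 0.24, adjusted p 0.000231). Casp1, the protease that the adaptor activates, fell from 1172 and 1097 to 176, 378, 360 and 299 (-1.96 ± 0.40, adjusted p 0.00273). These and Tlr1 were the 4 fallers among 28 genes of pattern recognition, and the 4 risers were Cd14, Tlr2, Clec7a and Clec4n, all known from myeloid cells. Clec7a was not called in a fit of the 6 arrays alone (adjusted p 0.113), nor Clec4n without probe sets that may bind several transcripts (adjusted p 0.0572). Tlr2 read 26, 85, 151 and 67 against 9 and 11 (2.79 ± 0.53, adjusted p 0.00183), and 2 members rose without control 1. Tlr4 read 31, 40, 42 and 54 against 64 and 43 (adjusted p 0.363).

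In the prostaglandin and leukotriene pathway 5 of 23 genes rose and 3 fell, and 3 rose without control 1. Ptgs2, the inducible cyclooxygenase, read 79, 60, 34 and 95 against 6 on both controls (3.38 ± 0.37, adjusted p 3.86e-05). Hpgd, which degrades prostaglandins, read 102, 82, 103 and 306 against 1918 and 1355 (-3.66 ± 0.74, adjusted p 0.00248), highest in tumor 4. That probe set may bind several transcripts, and the other probe set for Hpgd gave -0.58 (adjusted p 1.72e-05), under 2-fold. Slco2a1, the carrier that takes prostaglandins up for degradation, fell from 414 and 376 to 60, 56, 42 and 47 (-2.96 ± 0.45, adjusted p 0.000426). Alox12, a lipoxygenase, read 390, 272, 138 and 129 against 6 on both controls (5.12 ± 0.71, adjusted p 0.00022), but its other probe set gave 0.0. Ptges, a prostaglandin E synthase, read 17, 8, 5 and 6 against 5 on both controls (adjusted p 0.424). Complement and clotting genes rose in 14 of 33 members and fell in 0. C1qa, a chain of the complement starter C1q made by macrophages, read 95, 398, 618 and 424 against 6 and 4 (6.01 ± 0.65, adjusted p 3.67e-05). Cfi, a complement protease, read 28, 395, 439 and 326 against 7 on both controls (4.83 ± 1.08, adjusted p 0.00415). It changed by 5.78 without tumor 1 and was not called in a fit of the 6 arrays alone (adjusted p 0.0594). Plat, tissue plasminogen activator, read 279, 971, 1746 and 782 against 20 and 39 (4.80 ± 0.58, adjusted p 7.39e-05). The 14 risers became 7 without control 1 and 9 without control 2.

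Markers of other cell types moved with these results, and their part in them was not tested. Fibroblast genes rose in 13 of 27 members, their summed signal was 3638 to 11902 in the tumors and 396 to 486 in the controls, and 17 members were near the floor in the controls. Col1a2, a chain of collagen I, read 1146, 455, 367 and 567 against 15 and 6 (5.92 ± 0.88, adjusted p 0.00036), highest in tumor 1, with changes of 6.58 without control 1 and 5.26 without control 2. Fap, Prrx1, Twist1 and Twist2, which mark activated or embryonic mesenchyme, were near the floor in all 6 arrays. Pdgfra, the receptor of subepithelial fibroblasts, read 131, 121, 91 and 199 against 7 and 12 (3.83 ± 0.45, adjusted p 6.59e-05). Smooth muscle genes rose in 5 of 15 members and summed to 2037 to 3873 against 1196 to 1264. Acta2, the smooth muscle actin of myofibroblasts, read 1153, 660, 391 and 998 against 16 on both controls (5.53 ± 0.55, adjusted p 1.87e-05), but its probe set may bind several transcripts (a name ending in _x_at or _s_at), and without such probe sets the gene was not called. Des and Myocd, of mature muscle, were near the floor on all arrays. Vessel genes rose in 8 of 22 members, 5 without control 2, and summed to 581 to 1161 against 237 to 241. Plvap, of fenestrated capillaries, read 243, 191, 115 and 154 against 12 and 13 (3.76 ± 0.48, adjusted p 0.00012). Kdr and Cdh5, which define endothelium, were at 5 and 6 on all 6 arrays.

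Macrophage and dendritic cell genes rose in 12 of 25 members and fell in 1, with sums of 4677 to 8226 against 3956 to 5032. Lyz2, the lysozyme of myeloid cells, read 1196, 2969, 3212 and 2671 against 20 and 9 (7.45 ± 0.51, adjusted p 6.49e-07), and Tyrobp, a signaling adaptor of the same cells, read 190, 274, 459 and 245 against 7 and 6 (5.42 ± 0.33, adjusted p 2.12e-07). Arg1, arginase 1, was highest in tumor 1, at 1859, 538, 490 and 194 against 4 and 5 (6.96 ± 0.78, adjusted p 4.62e-05). Itgam, Cd163 and Ccr2 read 13 or less on every array. The faller was Ctss, cathepsin S, at 723, 1603, 1858 and 1821 against 4647 and 3573 (-1.53 ± 0.39, adjusted p 0.00875), and it did not pass without control 1 (adjusted p 0.0765) or in a fit of the 6 arrays alone (adjusted p 0.077). Neutrophil genes summed to 19918 in tumor 1, 1528 to 4666 in the other tumors and 624 to 701 in the controls, with 3 of 15 called. S100a8, a calcium-binding protein of neutrophils that squamous cells also make, read 6193, 961, 1019 and 102 against 8 on both controls (6.79 ± 1.22, adjusted p 0.00126), with changes of 5.86 without tumor 1 and 7.83 without tumor 4. Ltf, a granule protein, read 5173 in tumor 1 and 8 to 12 on the other arrays, while Mpo and Camp were at 5 on all 6.

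Lymphoid markers gave few calls, where 9.68% of all genes rose and 7.02% fell. Among 22 T and NK cell genes 0 rose and 0 fell by limma at these limits, and 18 were near the floor in the controls. At an unadjusted p under 0.05 and any size 1 was higher and 10 were lower, a limit for which no share of all genes was taken. At an adjusted p under 0.05 and any size 1 was higher and 5 were lower. Of all probe sets 14.2% were higher and 25.6% lower by that rule. The list summed to 443 to 616 in the tumors and 411 to 421 in the controls. Cd3e, part of the T cell receptor complex, read 8 on every tumor and 9 and 12 on the controls, and Cd3d read 5 throughout. A single member fell without control 1 and likewise without control 2. Of 14 B and plasma cell genes 1 rose, Jchain, which joins IgA dimers, at 344, 1333, 2299 and 1524 against 3 and 4 (8.34 ± 1.00, adjusted p 7e-05), and 1 member fell without control 2. The list summed to 3129 to 4716 in the tumors and 1872 to 1983 in the controls. Cd79a and Ms4a1, which define B cells, were at 5 to 15 in all arrays. Mast cell and eosinophil genes gave 2 calls among 18, the mucosal mast cell proteases Mcpt1 and Mcpt2, and summed to 130 in tumor 1, 613 to 1338 in the other tumors and 152 to 153 in the controls. Mcpt1 read 5, 529, 353 and 244 against 5 on both controls (4.62 ± 1.59, adjusted p 0.0397), so tumor 1 matched the controls. Its change without tumor 1 was 6.16, and neither protease passed without any of the 5 other arrays (adjusted p 0.0792 to 0.168). Mcpt1 and Mcpt2 were not called in a fit of the 6 arrays alone (adjusted p 0.205 and 0.246) or with the replicate block (adjusted p 0.0973 and 0.129). Epx, Siglecf and Prg2, which define eosinophils, were at 4 to 10. Enteric nerve and glia markers, with sums of 226 to 295 against 431 to 489, gave 1 faller among 18, the chloride channel gene Ano1 of pacemaker cells, which was not called with the replicate block (adjusted p 0.0509). The fallers numbered 2 without control 1 and 0 without control 2, and without tumor 1, 1 member rose.

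**Figure D4:**
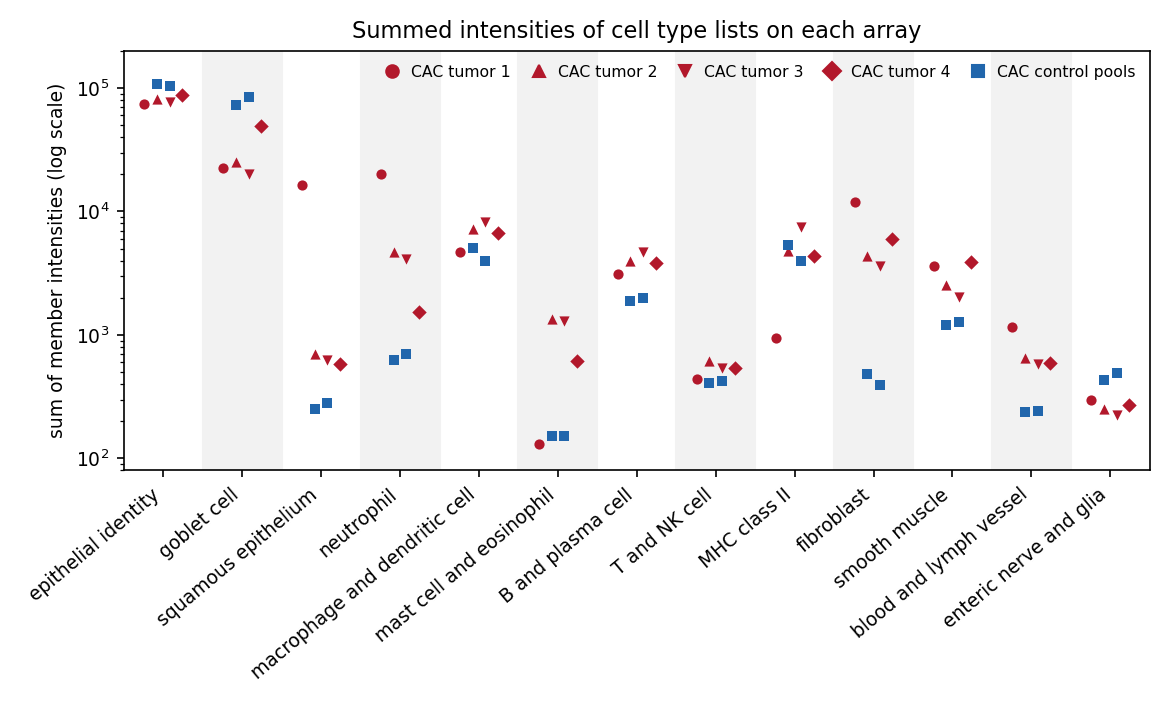
Sum of the intensities of all measured members of 13 cell type lists (x axis) on each of the 6 CAC arrays, on a log scale, with 1 red symbol for each tumor and blue squares for both controls. Ctss, at 4647 and 3573 in the controls, makes up most of their MHC class II sums (5393 and 3937). The same gene makes up most of their macrophage sums (5032 and 3956). Tumor 1 stands apart for squamous epithelium (16248), neutrophils (19918), mast cells (130) and MHC class II (953), and the fibroblast sums of all 4 tumors lie above both controls. The neutrophil sum of tumor 1 includes S100a8 (6193), which squamous cells also make, and S100a9 (7022).

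Antigen presentation depended on which tumor was read. MHC class II genes gave 0 risers and 1 faller among 10 with all tumors, and 4 risers without tumor 1. H2-Ab1, a class II chain, read 16, 391, 897 and 320 against 89 and 29 (2.02 ± 1.33, adjusted p 0.27), and without tumor 1 the change was 3.25 (adjusted p 0.00835). Cd74, the invariant chain, read 90, 1413, 1704 and 921 against 306 and 153 (1.63 ± 1.06, adjusted p 0.265) and changed by 2.59 without tumor 1 (adjusted p 0.0092). Tumor 1 lay below both controls in both genes, and the other tumors lay above. The faller Ctss was not called without control 1, which leaves 0. MHC class I genes gave 0 calls by limma among 14, with 0 higher and 4 lower at an unadjusted p under 0.05. At an adjusted p under 0.05 and any size 0 were higher and 2 lower, where 14.2% and 25.6% of all probe sets were. A single member, 1 of the 14, fell without tumor 2 or without tumor 3. B2m, the light chain of class I, read 989, 4430, 4773 and 2754 against 3588 and 2899 (adjusted p 0.869).

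Signaling pathways of crypt and stroma changed in part. Of 31 BMP and TGF-beta genes 13 rose and 1 fell. The faller was Bmp2, the ligand made by surface cells, at 39, 37, 38 and 59 against 492 and 180 (-2.81 ± 0.42, adjusted p 0.000328). Tgfbi, a matrix protein that TGF-beta induces, read 806, 1079, 664 and 991 against 10 and 23 (5.84 ± 0.46, adjusted p 2.31e-06), and Bambi, a decoy receptor, read 384, 365, 306 and 152 against 43 and 32 (2.94 ± 0.46, adjusted p 0.000511). Id2, a target of BMP signals, rose from 62 and 74 to 274, 409, 346 and 386 (2.37 ± 0.20, adjusted p 5.49e-06), whereas its relative Id1 read 3104, 2924, 2438 and 2384 against 3458 and 3212 (-0.31 ± 0.17, adjusted p 0.186). In the Notch and Hedgehog pathways 4 of 23 rose and 0 fell, where 9.68% of all genes rose and 7.02% fell. Without tumor 1, 1 member fell. Notch1 read 193, 178, 156 and 143 against 30 and 24 (2.63 ± 0.37, adjusted p 0.000211), and Notch2 read 244, 156, 126 and 107 against 19 and 20 (2.95 ± 0.29, adjusted p 1.89e-05). The other probe set of Notch1 gave 0.10 and that of Notch2 gave -0.20. Hes1, the usual Notch target, read 441, 288, 241 and 172 against 265 and 245 (0.08 ± 0.56, adjusted p 1), with tumors 1 and 2 above and tumors 3 and 4 below both controls.

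Basement membrane genes rose in 7 of 22 members, 4 without control 2. Itga6, an integrin subunit of epithelial cells that binds laminin, read 3029, 2654, 1605 and 1622 against 601 and 731 (1.69 ± 0.25, adjusted p 0.000378), and Col4a2, a chain of collagen IV, read 747, 307, 174 and 242 against 10 and 7 (5.23 ± 0.66, adjusted p 0.000111). The epithelial laminin gene Lamb3 read 491, 629, 395 and 473 against 478 and 360 (adjusted p 0.368). Targets of p53 gave 4 risers and 2 fallers among 19, where 9.68% of all genes rose and 7.02% fell. Phlda3, an inhibitor of Akt, read 172, 136, 130 and 178 against 6 and 11 (4.23 ± 0.24, adjusted p 1.3e-07). Cdkn1a, the cell cycle inhibitor p21, which maturing surface cells also carry, read 333, 649, 233 and 1085 against 2051 and 1653 (-1.93 ± 0.48, adjusted p 0.0082), and did not pass in a fit of the 6 arrays alone (adjusted p 0.118) or without control 1 (adjusted p 0.0644), which leaves 1 faller. Clock genes fell in 6 of 17 members and rose in 0, and 5 fell without tumor 1. Cry2 did not pass without tumor 1, tumor 2 or tumor 4 (adjusted p 0.0513 to 0.0676). Tef did not pass in a fit of the 6 arrays alone (adjusted p 0.0962). Dbp, an output gene of the clock, read 96, 26, 19 and 20 against 951 and 730 (-4.74 ± 0.70, adjusted p 0.000327), and Nr1d1, a clock repressor, read 6, 4, 3 and 4 against 75 and 30 (-3.53 ± 0.46, adjusted p 0.00013), with changes of -2.86 without control 1 and -4.19 without control 2. The core activators Clock and Arntl gave no call, with Clock at 213, 184, 128 and 131 against 130 and 147 (adjusted p 0.794). The labels used here give no hour of sampling, so its part in the clock genes was not tested.

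Tuft cells, which sense the gut content, and organs next to the colon were checked as well. Over all genes 9.68% rose and 7.02% fell. Among 13 tuft cell genes 3 rose and 0 fell. Avil, an actin-binding protein of tuft cells, read 168, 410, 465 and 236 against 11 and 19 (4.35 ± 0.39, adjusted p 7.52e-06), while Dclk1, Pou2f3 and Trpm5, which define the cell, stayed at 7 to 12 on all 6 arrays. Of 16 stomach and pancreas products 1 rose and 1 fell. Reg3g, an antibacterial lectin, read 624, 259, 145 and 31 against 17 and 5 (4.15 ± 1.26, adjusted p 0.0224), highest in tumor 1, and did not pass without control 2 (3.27, adjusted p 0.176) or in a fit of the 6 arrays alone (adjusted p 0.095). Its change was 3.51 without tumor 1, 4.96 without tumor 4 and 5.04 without control 1. The faller Cela1, an elastase, read 430, 362, 228 and 418 against 1884 and 2127 (-2.52 ± 0.36, adjusted p 0.000287). Risers numbered 2 without tumor 2 and 0 without control 2, and fallers 2 without tumor 4 or without control 1. Muc5ac, Gkn1 and Tff2, of the stomach surface, were at 4 to 12 in both groups.

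Outside these lists the highest change was that of Mgp, matrix Gla protein, a secreted inhibitor of calcification. It read 4440, 4091, 5405 and 2078 against 5 and 6 (9.43 ± 0.43, adjusted p 1.35e-08), near the floor in both controls. Defa5, an alpha-defensin of Paneth cells, read 643, 2662, 5652 and 4440 against 6 on both controls (8.74 ± 0.92, adjusted p 3.04e-05), lowest in tumor 1, and changed by 9.40 without it. Apoe, a lipid carrier that macrophages make, was also lowest in tumor 1, with 352, 1633, 2480 and 1685 against 4 on both controls (8.28 ± 0.71, adjusted p 5.04e-06), and changed by 8.89 without it. Further genes with bright tumors follow. Wfdc18, a small whey acidic protein, read 3596, 9900, 7542 and 7344 against 31 and 80 (7.06 ± 0.65, adjusted p 9.2e-06), with changes of 6.38 without control 1 and 7.75 without control 2. Pla2g2a, a secreted antibacterial phospholipase, read 2712, 2842, 2640 and 1870 against 12 and 26 (7.14 ± 0.39, adjusted p 8.09e-08). Mt4, a metallothionein best known from squamous epithelium, was lowest in tumor 1, the tumor with squamous keratins. It read 348, 2263, 2428 and 2851 against 11 and 12 (7.06 ± 0.71, adjusted p 1.99e-05), and changed by 7.77 without tumor 1. Ifitm3, an interferon-inducible membrane protein, read 5657, 8282, 9136 and 6265 against 70 and 128 (6.25 ± 0.28, adjusted p 1.13e-08). Tuba1a, an alpha-tubulin, rose from 107 and 72 to 1682, 2501, 2346 and 1505 (4.48 ± 0.27, adjusted p 1.84e-07), and Bex1 from 45 and 28 to 903, 1543, 1421 and 900 (5.03 ± 0.34, adjusted p 5.8e-07). The only probe set of Tuba1a may bind several transcripts, as may that of Wfdc18, so these rises may not belong to those genes alone. Lyz1, the lysozyme of Paneth cells, was the brightest riser, with 28067, 25805, 23755 and 22214 against 86 and 57 (8.47 ± 0.34, adjusted p 3e-09). Its 3 probe sets disagreed, with changes of 0.30 to 8.72, it shares sequence with Lyz2, and without probe sets that may bind several transcripts it was not called.

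The deepest falls outside the lists included carriers, enzymes and proteases. Slc37a2, a sugar phosphate carrier, read 5, 6, 6 and 7 against 1306 and 944 (-7.54 ± 0.15, adjusted p 7.47e-12), with little spread in either group. Sycn, syncollin, read 17, 57, 30 and 121 against 7234 and 7727 (-7.43 ± 0.91, adjusted p 8.72e-05). Selenbp1, a selenium-binding protein of maturing epithelium, read 121, 55, 47 and 245 against 8171 and 8450 (-6.47 ± 0.58, adjusted p 7.33e-06). Tumor 4 was the highest tumor for all 3. Abat, which breaks down the transmitter GABA, read 7, 11, 8 and 42 against 1741 and 1256 (-6.87 ± 0.58, adjusted p 4.81e-06). Mep1a, a brush border protease, read 6, 12, 6 and 37 against 1033 and 634 (-6.17 ± 0.62, adjusted p 1.91e-05). Klk1, a kallikrein protease, read 259, 802, 398 and 3464 against 18425 and 20342 (-4.73 ± 0.81, adjusted p 0.000892), and changed by -5.47 without tumor 4. Tnni1, a troponin subunit named for slow muscle, fell from 1281 and 1514 to 27, 40, 69 and 95 (-4.76 ± 0.61, adjusted p 0.00012).

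Some bright genes were measured as differing by little. For 2818 of the 5646 genes bright in both groups the 95% interval of the change lay within 1 of 0 on the log2 scale, a range that includes small differences past the test such as that of Uqcrh, and for 665 it lay within 0.5. Actb, cytoplasmic beta-actin, read 20853, 24924, 23625 and 20769 against 22472 and 17201 (0.19 ± 0.14, adjusted p 0.327), though its 2 probe sets gave -0.97 and 0.19. Eef1a1, the elongation factor of translation, read 21581, 21284, 22279 and 19783 against 17331 and 19299 (0.21 ± 0.08, adjusted p 0.0567). Ndufb11, of complex I, read 1680, 1368, 1553 and 1519 against 1549 and 1528 with an interval of -0.15 to 0.13. Rpl37a was among the brightest genes of both groups, at 19499, 19452, 19612 and 19905 against 19148 and 21781 (-0.06 ± 0.09, adjusted p 0.688).

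A comparison with the Apc Min/+ model shows where the CAC change differed. The difference of the tumor changes was tested as an interaction, and 1017 of 13084 genes (7.77%) passed at an adjusted p under 0.05, among them 192 of the 2186 genes called in the CAC comparison (8.78%). No minimum change was set, so small differences of dim genes count. With only probe sets that had a mean of 32 or more in a CAC group, 284 genes passed. All CAC arrays lie in experimental block 1 and all Apc Min/+ arrays in block 2, so model and block cannot be told apart. Pyy, a hormone of enteroendocrine cells, fell in CAC tumors, from 352 and 440 to 211, 74, 31 and 73, and was 717 to 3469 in 5 sporadic tumors against 505 to 516 in 3 sporadic controls (difference -4.22 ± 0.95, adjusted p 0.0193). Its CAC change of -2.35 did not pass without control 1 (adjusted p 0.0793) or control 2 (adjusted p 0.126), in a fit of the 6 arrays alone (adjusted p 0.102) or with the replicate block (adjusted p 0.0822). Krt36, a keratin, read 1173, 1319, 1044 and 766 against 27 and 26 in the CAC arrays, and 171 to 1265 against 176 to 528 in the sporadic arrays (difference 4.86 ± 0.95, adjusted p 0.00857). Lmo2, a transcription cofactor, rose in both models, to 65, 124, 61 and 25 from 9 and 11 in CAC tumors and to 259 to 927 from 9 to 10 in sporadic tumors (difference -3.45 ± 0.77, adjusted p 0.0182), though its CAC rise was not called in a fit of the 6 arrays alone (adjusted p 0.0515).

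Krt36 controls lay farther apart between the models than Krt36 tumors did, and the same held for Edn2, Rasd1 and Hba-a1. Edn2, endothelin 2, read 9, 12, 7 and 7 in CAC tumors and 7 to 21 in sporadic tumors, but 67 and 26 in CAC controls and 981 to 1464 in sporadic controls (difference 4.07 ± 0.62, adjusted p 0.00134). Rasd1, a small GTPase induced by glucocorticoids, followed the same pattern, with 7 in each CAC tumor, 5 to 7 in sporadic tumors, 51 and 46 in CAC controls and 447 to 682 in sporadic controls (difference 3.68 ± 0.21, adjusted p 1.27e-07). Hba-a1, an alpha-globin of red blood cells, read 8901 and 8321 in CAC controls and 334 to 684 in sporadic controls, while CAC tumors read 3571, 2675, 3815 and 1644 and sporadic tumors 719 to 2805 (difference -3.31 ± 0.69, adjusted p 0.0128). The globin signal moved with the CAC controls, and how far blood in those pools bears on other genes was not tested. Its CAC change of -1.63 did not pass without tumor 2, tumor 4, control 1 or control 2 (adjusted p 0.0563 to 0.127). The 4 Hba-a1 probe sets gave changes of -2.68 to -0.13, and without those that may bind several transcripts it was not called (-0.13, adjusted p 0.0571).

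**Figure D5:**
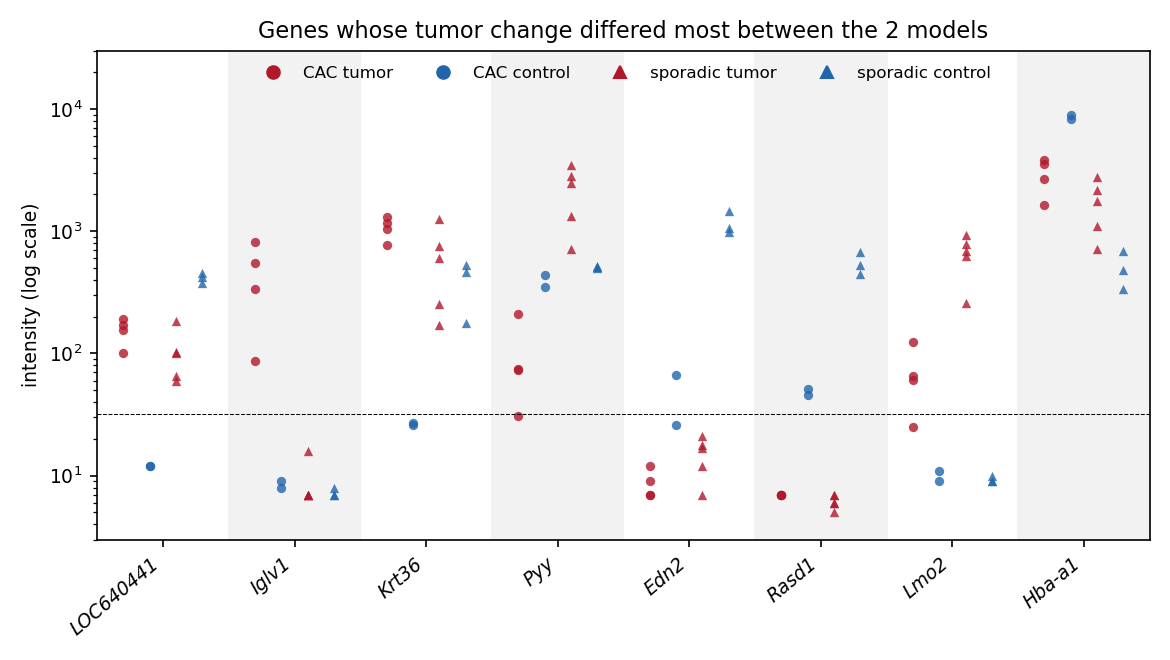
Intensity (log scale) on each array for the 8 genes called in the CAC comparison whose tumor change differed most between models, with circles for CAC and triangles for the Apc Min/+ (sporadic) model, red for tumors and blue for controls. Lmo2 is higher in all tumors of both models, while for LOC640441, Krt36, Pyy, Edn2, Rasd1 and Hba-a1 the blue symbols of one model do not overlap those of the other.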

How the data were processed

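RNA of 4 CAC tumors and 2 CAC control pools was measured on 1-colour Affymetrix arrays; the 8 arrays of the sporadic model entered the fit. The deposited intensity values are GCRMA values, per the submitters' processing notes, and lie between 2 and 31599, on a linear scale and without decimals. The version run is not given in the sources used here. A second deposited table holds the same values (0 differ), and 0 columns of other samples were left out.

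After removal of 64 AFFX probe sets, log2 of 22626 intensities without offset was fitted in limma 3.58.1 (R 4.3.3) with 4 group means over 14 arrays and eBayes, with Benjamini-Hochberg adjustment over all probe sets. The deposited fold and p columns were not used. Of the probe sets, 21171 carry 1 symbol, 831 several, 604 none and 20 a date; 13153 symbols (2367 updated through RefSeq) gave 13084 genes, each read through the probe set with the largest mean. Replicates are separate tumors and separate pools; nothing else is said of the pools.

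The 45 gene lists (1018 of 1103 entries measured), the comparison and the rule for named genes were chosen with earlier results of these data known. The rule took the 12 highest and 12 lowest changes among genes bright in both groups and among those bright in 1 group, up to 4 called members per list, the 6 brightest genes per group, up to 8 differences between models, and 6 level genes. Further list members are given as examples, chosen after their values were seen. Replicate numbers do not pair the samples: deviations of same-numbered tumor and control arrays correlated at -0.02 and -0.03. Promoters were RefSeq windows of GRCm38.p6. Results for a few list members are not reported here.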

Additional observations from a re-analysis of the deposited data

Results flagged for a closer look

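In 20 of 200 named genes 1 tumor lay farther from the other 3 than Dixon's critical value for 4 samples allows, where chance alone gives about 1 in 20 groups. Tumor 4 was the distant one, on the high side, for Adh1 (802), Aqp8 (6), Car4 (181), Creb3l1 (124), Cyp2c55 (83), Slc26a3 (24) and Suclg1 (840), all of which fell in the tumors, and on the low side for Srgn (577), a proteoglycan of blood cells. Tumor 1 was the distant one for Cfi (28), Ctss (723), Gpx3 (326), Krt14 (1739), Lypd8 (5768), Mcpt1 (5), Mt4 (348), Rpl23 (24259) and Shmt2 (212). Tumor 2 was distant for Ndufa6 (694) and Tarbp2 (54), and tumor 3 for Slc20a1 (63). For Aqp8 the distance is 1 rounded unit.

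The CAC change minus the sporadic change, tested as an interaction in limma, differed most for LOC640441 (5.79), Iglv1 (5.15), Krt36 (4.86), Pyy (-4.22), Edn2 (4.07), Rasd1 (3.68), Lmo2 (-3.45) and Hba-a1 (-3.31), on the log2 scale. LOC640441, a locus without a settled name here, read 12 on both CAC controls and 378 to 454 on the 3 sporadic controls. Iglv1, an immunoglobulin light chain segment, read 87, 548, 823 and 338 in the CAC tumors, and 7 to 16 in the sporadic tumors. Its probe set may bind several transcripts, and without such probe sets the CAC change of Iglv1 turned to -0.44 (adjusted p 0.000652).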

How the results depend on the processing

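With no minimum change the calls grew to 2084 genes up and 3352 down (3223 and 5794 probe sets), since small changes then count. The difference between models gave 599 genes at an adjusted p under 0.01, 252 with a mean over 14 arrays of at least 32 and 284 with such a mean in a CAC group. The last 2 settings leave out dim genes, which the count of 1017 included with no minimum change. With 1 CAC array left out, 1029 to 1269 genes rose and 854 to 936 fell (1604 to 1944 and 1312 to 1461 probe sets), and 922 to 1328 genes differed between models. With the replicate number as a block, which does not pair the samples, 1247 genes rose and 914 fell and 764 differed between models; the correlation of same-numbered arrays was under 0.1. Quantile normalization gave 1093 risers and 1050 fallers, and the 6 arrays alone 1023 and 731, with no value for the difference between models. Of 186 named genes called, 35 lost the call with some array left out, 25 with only the 6 arrays, 12 with the block and 3 with quantile normalization. Iglv1 turned to -0.44 (adjusted p 0.000652) without _x_at and _s_at probe sets, which leaves another probe set for the gene. Only 182 of the 186 genes had a value in that setting. Tuba1a, Wfdc18, S100a8 and Gar1 have only such probe sets and could not be checked there. Array signal near the floor and 2 control pools limit dim genes most.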
